A study of Mus musculus with 3 samples.

Results

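Among TEa CD4 T cells taken from the spleen after a heart transplant, 423 cells carried at least 3 transcripts of Ccl5, the gene for an inflammatory chemokine that draws T cells and monocytes. They made up 7.03% (6.39 to 7.70%) of 6020 spleen cells that passed the same filter. The filter left 8734 cells in both wild-type libraries together. A cell entered the filter with at least 1000 unique molecular identifiers (UMIs, each standing for 1 captured RNA molecule), at least 500 genes, at most 10% mitochondrial UMIs and at least 6 UMIs summed over Cd3d, Cd3e, Cd3g, Trac, Trbc1 and Trbc2. Cells with more than 1 UMI of Lyz2, a gene of myeloid cells, or more than 1 summed UMI of 10 cell cycle genes were left out. The 423 cells are called Ccl5-positive here and were chosen by their measured Ccl5 count alone among the filtered cells. They were set against the 5247 filtered spleen cells with no Ccl5 UMI, called Ccl5-zero. A further 350 cells held 1 or 2 Ccl5 UMIs and stood outside both sets.

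TEa cells carry a transgenic T cell receptor that recognises a peptide of the BALB/c major histocompatibility molecule I-E alpha. C57BL/6 mice were given naive, congenically marked wild-type TEa cells and then a BALB/c heart. On day 7 the transferred cells were sorted from the recipients' spleens and from the grafts, and each tissue gave 1 library. A library of Ldha-deficient TEa cells from spleens of the same day was not analysed here. All TEa cells compared were wild type, all recipients carried a BALB/c graft, and neither a naive nor a syngeneic control was analysed here. The number of mice behind each library is not given in the sources used here.

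Values are CPM, the UMIs of a gene summed over a set of cells and scaled to 1000000 of that set's 3538547 UMIs (Ccl5-positive) or 42933589 UMIs (Ccl5-zero) in all. Brackets beside CPM hold an exact 95% Poisson interval, and brackets beside a share hold an exact binomial one (Clopper-Pearson). Both kinds cover counting error only. Ratios are log2 of (CPM + 1) in Ccl5-positive over (CPM + 1) in Ccl5-zero cells, which understates differences of low genes. With 1 library per tissue there is no replicate, no test and no p-value, cells are not replicates, and a library's own effects cannot be told apart from its tissue's. Ccl5 itself chose the cells, so every spleen difference between the sets describes that choice, and is no independent support for it.

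As background, a naive CD4 T cell that meets its antigen can become a Th1 cell, which is driven by interleukin 12, interleukin 18 and interferon gamma and by the transcription factor T-bet (Tbx21). Th1 cells express the chemokine receptor Cxcr3 and can leave lymphoid organs for inflamed tissue. In a transplant recipient they help to recruit macrophages and cytotoxic cells to the graft. Follicular helper (Tfh) cells, the other common outcome in a spleen, stay in the tissue and help B cells. Ccl5 is a late product of antigen-experienced and cytotoxic T cells. Its protein binds chemokine receptors, among them Ccr1.

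Depth was alike in the sets compared. The median cell held 7791 UMIs and 2184 genes among Ccl5-positive cells, and 7891 UMIs and 2164 genes among Ccl5-zero cells. Ribosomal protein genes took a median of 32.1% of a Ccl5-positive cell's UMIs and 36.8% of a Ccl5-zero cell's. Totals that leave out mitochondrial, ribosomal protein and Malat1 counts moved the median ratio of all genes by -0.12, so ratios within that distance of 0 have no stable sign. The filtered spleen and graft cells shared 2 barcodes, none of them a Ccl5-positive spleen cell.

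The Ccl5-positive cells held 3 to 1129 Ccl5 UMIs, with a median of 11. Summed, Ccl5 (chromosome 11, 83525778 to 83530518, minus strand of GRCm38) stood at 3783 CPM (3719 to 3847). The 10 richest cells held 29.1% of its UMIs. In spleen barcodes of 1 to 100 UMIs, which hold mostly free RNA, Ccl5 was at 312 CPM, near the 279 CPM of all filtered spleen cells together. These nearly empty barcodes held 2848617 UMIs over 828721 barcodes. Among filtered cells 87.2% held no Ccl5 UMI, at a median depth like that of the Ccl5-positive cells. Among 27 spleen barcodes removed for few T cell transcripts or for Lyz2, 6 held at least 3 Ccl5 UMIs (22.2%, 8.62 to 42.3%, median 7658 UMIs). Whether those barcodes hold cells that make Ccl5 was not tested. In the graft the same filter left 2714 cells, of which 701 were Ccl5-positive (25.8%, 24.2 to 27.5%), also with a median of 11 Ccl5 UMIs. Graft barcodes of 1 to 100 UMIs had Ccl5 at 602 CPM, beside 713 CPM in all filtered graft cells. The part of free RNA in the graft share was not tested.

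**Figure D1:**
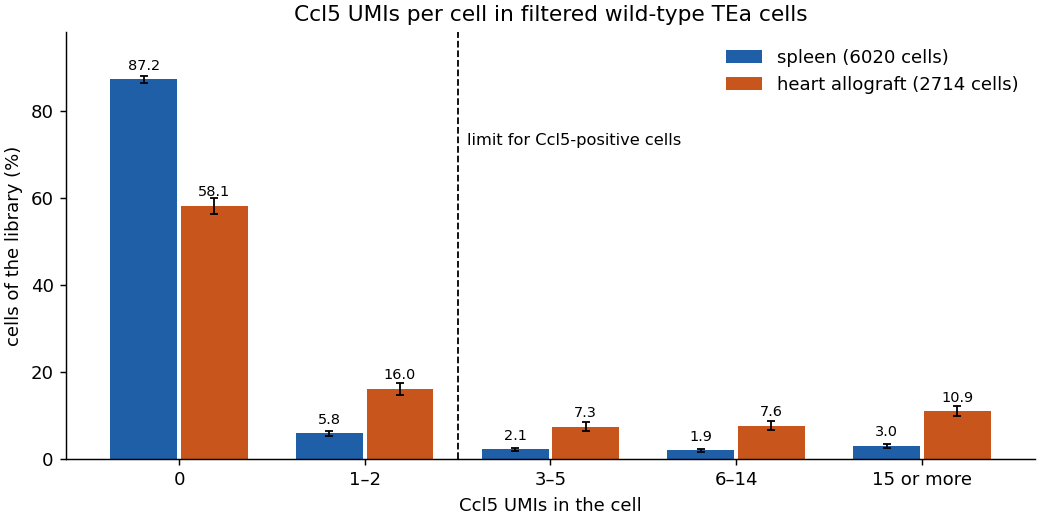
Share of filtered wild-type TEa cells (y axis, percent of the library) by the number of Ccl5 UMIs in the cell (x axis), for spleen (blue, 6020 cells) and heart allograft (orange, 2714 cells). Bars carry exact 95% binomial intervals, and the dashed line marks the limit of 3 UMIs, above which lie 7.03% of spleen and 25.8% of graft cells.

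The label Th1-like was checked first against the T cell genes. Cd4 was at 185 CPM (171 to 200) in Ccl5-positive and 218 CPM (214 to 222) in Ccl5-zero cells, while Cd8a and Cd8b1 summed to 6.22 and 5.19 CPM. Tbx21, the Th1 lineage factor, was at 30.2 CPM (24.8 to 36.5) against 9.46 CPM (8.56 to 10.4), a ratio of 1.58. Ifng (chromosome 10, 118441046 to 118445892) encodes interferon gamma, the hallmark product of Th1 cells, and was at 42.4 CPM (35.9 to 49.7) against 8.80 CPM (7.94 to 9.74). Foxp3, the factor of regulatory T cells, had 1 UMI in all Ccl5-positive cells together. Tbx21 was detected in 19.1% and Ifng in 18.4% of Ccl5-positive cells, and 10 of these cells held 40% of their Ifng UMIs. Genes of other helper types numbered 7 with at least 10 CPM in either set. Of these, 3 (Ahr, Rora and Ikzf3) were at least 2-fold higher and none lower. Among all 6743 genes with at least 10 CPM, 161 (2.39%) were higher by as much and 59 (0.875%) lower. Ahr was near that floor, at 12.4 against 3.35 CPM, with 44 UMIs in 34 Ccl5-positive cells. Rora and Ikzf3 (72.9 against 34.8 CPM) passed 2-fold only narrowly. Of 5 regulatory T cell genes none passed 2-fold, 4 had a ratio above 0 and the median was 0.70. The Cd4, Tbx21, Ifng and Foxp3 values do not go against the label, although Tbx21 and Ifng are low in both sets. Whether the cells are Th1-like alone was not tested.

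The 4 other genes given as markers of these cells were all higher in them. Ccr2 (chromosome 9, 124101950 to 124113557), a chemokine receptor of monocytes and effector T cells that binds Ccl2, was at 143 CPM (131 to 156) against 12.6 CPM (11.5 to 13.7). Ly6c2 (chromosome 15, 75108158 to 75111970), a surface protein of effector T cells and monocytes, was at 383 CPM (363 to 404) against 26.0 CPM (24.5 to 27.6). The last 400 bases of its transcript are 98.2% identical to those of Ly6c1 (386 of 393 aligned bases), so the sharing of reads between these copies is uncertain. S100a4 (chromosome 3, 90603771 to 90606045), a calcium-binding protein of motile cells, was at 1589 CPM (1548 to 1631) against 229 CPM (224 to 234). Id2 (chromosome 12, 25093799 to 25097140), an inhibitor of E protein transcription factors that favours effector over Tfh fates, was at 472 CPM (449 to 495) against 134 CPM (131 to 138). The ratios were 3.41, 3.83, 2.79 and 1.80. The intervals of the 2 sets did not touch for these 4, but neither did those of Klf2 and Tcf7, which lay within 2-fold. The share of all genes whose intervals part in this way was not counted.

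The markers were carried unevenly. Of the 423 Ccl5-positive cells, 76 (17.97%) held a UMI of all 4 of these other markers and 46 (10.9%) held none. Of the Ccl5-zero cells, 0.839% held all 4 and 48.5% none. With every cell thinned to 1000 UMIs, 1.42% of Ccl5-positive and 0.114% of Ccl5-zero cells held all 4, and 30.7% and 83.7% held none. Thus some Ccl5-positive cells held no UMI of these markers, which at this depth does not show that the transcripts were absent.

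Across all genes with at least 50 CPM in either set, 53 of 2475 (2.14%) were higher by 2-fold or more in Ccl5-positive cells, and 18 (0.727%) were lower by as much, with Ccl5 left out. The higher genes were 74.6% of those called, and 63.9% (62 higher, 35 lower of 3697 genes) with totals that leave out mitochondrial, ribosomal protein and Malat1 counts. Under those totals 39 of the 53 higher and all 18 lower genes were still 2-fold apart. With cells thinned to 1000 UMIs there were 84 higher and 34 lower, of which 48 and 15 were among the genes already counted. Among the 18 lower genes is Hbb-bs, a haemoglobin gene: 3 Ccl5-zero cells held 5151 of the 5298 haemoglobin UMIs of that set, so this gene describes those cells.

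**Figure D2:**
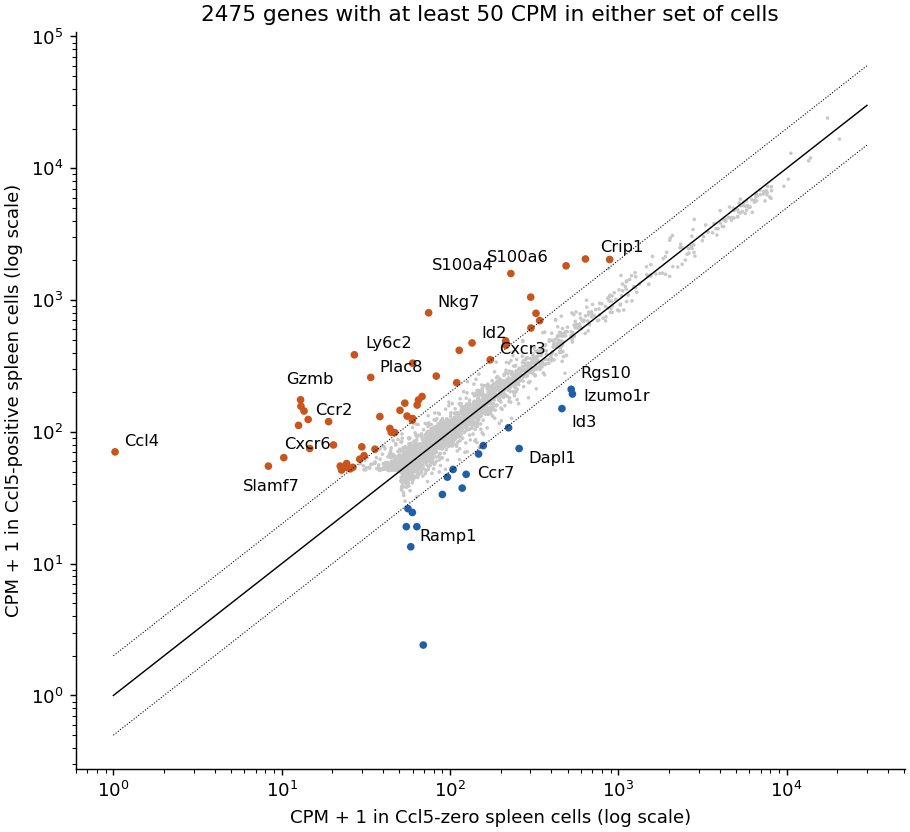
CPM + 1 in Ccl5-positive spleen cells (y axis, log scale) against CPM + 1 in Ccl5-zero spleen cells (x axis, log scale) for the 2475 genes with at least 50 CPM in either set, Ccl5 left out. The solid line marks equal levels and dotted lines a 2-fold difference; the 53 higher genes are orange and the 18 lower genes blue, with Ly6c2, Nkg7 and S100a4 far above the line and Ramp1 and Dapl1 far below it.

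The 12 genes farthest up were, besides Ly6c2, Ccr2 and S100a4, 9 genes of several roles. Gzmb (chromosome 14, 56258838 to 56262260), the protease granzyme B, was at 174 CPM (161 to 188) against 11.9 CPM (10.9 to 13.03), a ratio of 3.76. Nkg7 (chromosome 7, 43437073 to 43438249), a protein of cytotoxic granules, was at 800 CPM (771 to 830) against 73.7 CPM (71.1 to 76.3). Cxcr6 (chromosome 9, 123806475 to 123811760), a chemokine receptor of effector T cells in tissue, was at 111 CPM (100.4 to 123) against 11.6 CPM (10.6 to 12.7). Nkg7 was detected in 348 of the 423 cells (82.3%) and in 13.7% of Ccl5-zero cells, or 50.6% and 4.99% after thinning. Gzmb was detected in 124 of them (29.3%) and Cxcr6 in 144 (34.04%). Hence Nkg7 is carried by most Ccl5-positive cells, and granzyme B and Cxcr6 by a minority at this depth.

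The others of the 12 were Ccl4, Lgals3, Ifitm3, Plac8, Slamf7 and Ctsw. Lgals3, which encodes galectin-3, was at 155 against 12.02 CPM, and Ifitm3, an interferon-induced membrane protein, at 123 against 13.4 CPM. Plac8 was at 258 against 32.8 CPM. Slamf7, a receptor of the SLAM family on cytotoxic cells, was at 54.0 against 7.34 CPM, and Ctsw, cathepsin W, at 119 against 18.005 CPM. Ccl4, a chemokine of the same CC family as Ccl5, had 246 UMIs in 13 Ccl5-positive cells and 1 UMI in all Ccl5-zero cells.

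The RefSeq promoter table (GRCm38.p6, 250 bases before to 50 after each start) held windows for 10 of these 12 genes and for 9 of the 12 lowest. It held windows for 4 of the 5 given markers, with none for Ccl5. The windows were searched on both strands for the core letters TGTGGT, which RUNX factors bind and which read ACCACA on the opposite strand. The core letters of T-box factors, AGGTGT, read ACACCT there. Runx3 and T-bet, members of these families, are known regulators of Th1 and cytotoxic genes. The RUNX letters lay in 6 of the 12 windows of the highest genes (Cxcr6, Gzmb, Ly6c2, Nkg7 and Plac8, with Ly6c2 counted in 2 windows). They lay in 1 of the 9 windows of the lowest genes (Izumo1r) and in 16.8% of all 32851 windows. Among the given markers only Ly6c2 held them. The T-box letters lay in 2 of those 12 windows (Nkg7 and Plac8), in 4 of the 9 lowest (Ephx1, Id3, Izumo1r and Ramp1) and in 13.7% of all. Letters of interferon-response, NF-kB and KLF factors were searched as well. They lay in 1 (Ifitm3), 0 and 1 (Plac8) of the 12 windows, in none of the 9, and in 3.44%, 0.411% and 3.56% of all. The windows of 3 genes are printed as examples of genes with the RUNX letters that also stood far apart between the sets, each as the 250 bases before the start, 5′ to 3′ on the gene's strand, with the matched letters in capitals. They are chr7:43436888-43437137 (plus strand) for Nkg7, chr9:123806227-123806476 (plus strand) for Cxcr6 and chr15:75111972-75112221 (minus strand) for Ly6c2.
Nkg7: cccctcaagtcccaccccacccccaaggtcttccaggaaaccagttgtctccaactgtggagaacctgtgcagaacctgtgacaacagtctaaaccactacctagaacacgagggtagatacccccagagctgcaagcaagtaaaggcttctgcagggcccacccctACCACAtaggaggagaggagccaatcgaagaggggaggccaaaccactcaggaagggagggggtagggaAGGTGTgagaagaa
Cxcr6: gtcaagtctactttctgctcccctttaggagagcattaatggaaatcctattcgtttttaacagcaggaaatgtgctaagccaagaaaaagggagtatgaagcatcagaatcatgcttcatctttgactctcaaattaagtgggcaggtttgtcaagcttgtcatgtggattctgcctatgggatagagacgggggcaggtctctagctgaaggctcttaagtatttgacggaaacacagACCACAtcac
Ly6c2: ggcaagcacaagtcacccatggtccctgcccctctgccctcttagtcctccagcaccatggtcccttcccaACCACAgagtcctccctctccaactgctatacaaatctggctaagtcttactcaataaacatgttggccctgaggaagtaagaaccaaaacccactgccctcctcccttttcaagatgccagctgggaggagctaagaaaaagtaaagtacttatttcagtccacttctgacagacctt
In Nkg7 the RUNX letters begin at position -83 and the T-box letters at -14, counted from the start. In Cxcr6 the RUNX letters begin at -10, and in Ly6c2 at -179. A match is a description of letters, and no binding was measured here.

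The 12 genes farthest down include genes of homing and of resting and follicular cells. Ramp1 (chromosome 1, 91179822 to 91225196), a partner protein of the calcitonin receptor-like receptor, was at 12.4 CPM (9.03 to 16.7) against 57.5 CPM (55.2 to 59.8), a ratio of -2.12. Id3 (chromosome 4, 136143497 to 136145755), a relative of Id2 linked to Tfh and memory cells, was at 149 CPM (137 to 163) against 461 CPM (455 to 468). Ccr7, which guides T cells into T cell zones, was at 46.6 CPM (39.8 to 54.3) against 124 CPM (120.4 to 127). Izumo1r, which encodes folate receptor 4 of Tfh and regulatory cells, was at 193 against 533 CPM. Thus the pair of Id genes stood on opposite sides, with Id2 higher and Id3 lower in Ccl5-positive cells.

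Of the other genes in that group, Dapl1 was at 73.8 against 257 CPM, Cd200 at 18.1 against 62.6 CPM and Il6st, the signalling chain of the interleukin 6 receptor, at 32.5 against 89.1 CPM. Rgs10, which dampens signals of G protein-coupled receptors, was at 209 against 524 CPM. Ephx1, Rnf19a and the tubulin gene Tuba1b had ratios of -1.53, -1.29 and -1.12. None of these genes was absent from the Ccl5-positive cells: 146 of the 423 (34.5%) held an Id3 UMI, against 75.8% of Ccl5-zero cells (11.8% and 31.7% after thinning).

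Lists of genes with a common role were read by their members with at least 10 CPM in either set. Over all 6743 such genes, 161 (2.39%) were higher by 2-fold or more, 59 (0.875%) lower by as much, and the median ratio was 0.02. Of 11 Th1 regulators and receptors, 6 were at least 2-fold higher and none lower, with a median of 1.44. The 6 were Ifng, Tbx21, Hopx, which supports survival of Th1 cells (415 against 112 CPM), Ifngr1, a chain of the interferon gamma receptor (185 against 67.2 CPM), and both chains of the interleukin 18 receptor. Il18r1 was at 78.6 CPM (69.6 to 88.4) against 19.3 CPM (18.02 to 20.7), and Il18rap at 40.98 CPM (34.6 to 48.2) against 6.38 CPM (5.65 to 7.18). The interleukin 12 receptor gene Il12rb2 was low, at 3.96 against 1.05 CPM. Runx3 (107 against 59.0 CPM) and Stat4 (122 against 96.4 CPM) lay within 2-fold.

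Of 13 genes of the cytotoxic machinery, 8 were at least 2-fold higher and none lower, with a median of 1.98. Besides Gzmb, Nkg7 and Ctsw these were Gzma (39.0 against 0.862 CPM), Gzmk (43.0 against 1.89 CPM), the lectin receptor genes Klrk1 (11.3 against 0.443 CPM) and Klrd1 (24.9 against 5.54 CPM), and Serpinb6b. Some of these sums rest on few Ccl5-positive cells. Gzma and Klrk1 were each detected in 15 cells and Klrd1 in 40. The 10 richest cells held 96.4%, 87.5% and 58.0% of their UMIs. Fasl, the ligand of the death receptor Fas, was at 11.02 and 12.1 CPM and did not follow them. Prf1, which encodes the pore protein perforin, had 10 UMIs in all Ccl5-positive cells (2.83 CPM). Markers of natural killer cells summed to 59.1 CPM (51.3 to 67.6) in Ccl5-positive and 7.50 CPM (6.70 to 8.37) in Ccl5-zero cells. That list has 8 genes, among them Gzma. Of its UMIs 80.9% lay in 10 Ccl5-positive cells, its UMIs occurred in 43 of the 423, and its defining receptor gene Ncr1 was at 0. Its part in the cytotoxic values was not tested beyond this.

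Among 9 chemokine receptors and homing receptors, 4 were at least 2-fold higher (Ccr2, Cxcr6 and Cxcr3 among them), 1 lower (Ccr7), and the median was 0.74. Cxcr3, the receptor for interferon-induced chemokines, was at 352 CPM (332 to 372) against 172 CPM (169 to 176), and 87.5% of Ccl5-positive cells held a UMI of it. Its ratio was 1.02, and 0.90 with totals that leave out mitochondrial, ribosomal protein and Malat1 counts, so its call ends there. S1pr1, which lets T cells leave lymphoid organs, was at 153 and 177 CPM, and its inducer Klf2 at 1063 CPM (1029 to 1098) and 884 CPM (875 to 893). Thus Ccr2 and Cxcr6 were higher, while S1pr1 and Klf2, genes of exit from lymphoid organs, lay within 2-fold.

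Of 17 integrin and adhesion genes, 3 were at least 2-fold higher and 1 lower (median 0.35). Selplg, whose protein PSGL-1 binds selectins on inflamed vessels, was at 454 against 214 CPM, a ratio of 1.08 that fell under 2-fold, to 0.96, with those totals. Itga4 and Itgb1, the chains of the integrin VLA-4, were at 492 against 270 CPM and 702 against 423 CPM, both within 2-fold. Of 22 genes for S100 proteins, annexins, galectins and related proteins, 10 were at least 2-fold higher and none lower (median 0.94). They included S100a6 (1819 against 489 CPM), Lgals1, which encodes galectin-1 (1052 against 301 CPM), Crip1 (2049 against 637 CPM) and Anxa2 (164 against 52.9 CPM). Among 20 cytoskeletal genes only Myo1f, an unconventional myosin of leukocytes, passed 2-fold, at 73.8 against 13.7 CPM.

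Of 18 genes of naive and stem-like T cells, 4 were at least 2-fold lower (Dapl1, Ccr7 and Bach2 among them), 1 was higher and 13 lay within 2-fold. The median ratio was -0.43, and 14 had a ratio below 0, beside 3176 of all 6743 genes. Tcf7, the transcription factor TCF-1 of stem-like and Tfh cells, was at 278 CPM (260 to 295) against 481 CPM (475 to 488), and 74.9% of Ccl5-positive cells still held a UMI of it. Lef1, its relative, was at 106 against 165 CPM. Against the rest of the list, Bcl2, which protects from cell death, was at 97.8 CPM (87.7 to 109) against 45.9 CPM (43.9 to 48.0), and Il7r, the interleukin 7 receptor of long-lived T cells, at 250 against 142 CPM. Of these, Bcl2 alone was at least 2-fold higher, and Il7r lay within 2-fold.

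Of 16 Tfh genes, 5 were at least 2-fold lower, 1 higher (Slamf1, 30.5 against 11.9 CPM) and the median was -0.71. The lower ones were Cd200, Izumo1r, Il6st, Tox2 (9.61 against 21.8 CPM) and Angptl2. Cxcr5, the receptor that leads cells to B cell follicles, was at 22.9 CPM (18.2 to 28.5) against 38.4 CPM (36.6 to 40.3), and Bcl6, the Tfh lineage factor, at 6.78 CPM (4.35 to 10.1) against 11.5 CPM (10.5 to 12.5). Icos (152 and 164 CPM) and Maf (239 and 126 CPM), which Tfh cells share with other effectors, lay within 2-fold.

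Of 25 genes induced by interferon, 7 were at least 2-fold higher in Ccl5-positive cells and none lower. A ratio above 0 was found for 24, beside 3567 of all 6743 genes, and the median was 0.58, or 0.46 with totals that leave out mitochondrial, ribosomal protein and Malat1 counts. Ifit3, an antiviral protein, was at 54.0 against 21.3 CPM and Gbp7, a guanylate-binding protein, at 105 against 43.0 CPM. All 15 genes of MHC class I and its antigen processing had a ratio above 0, none passed 2-fold, and the median was 0.34, or 0.21 with those totals. Of 15 genes of interleukin 2 and common gamma chain signalling, 5 were at least 2-fold higher: Bcl2, the receptor chain Il2rb (131 against 54.6 CPM), the kinase Pim1 (145 against 49.4 CPM) and the feedback inhibitors Socs2 and Cish (24.9 against 4.01 and 17.8 against 3.35 CPM).

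Lists of recent receptor signalling and of glycolysis held at most 1 gene each that was 2-fold apart. Of 12 immediate early and T cell receptor response genes none was at least 2-fold higher and 1, Nr4a1, lower (6.78 against 19.2 CPM). Their median was -0.35, or -0.48 with totals that leave out mitochondrial, ribosomal protein and Malat1 counts. Of the 12, 9 had a ratio below 0, beside 3176 of all 6743 genes. None of 14 genes of the proximal receptor complex passed 2-fold. None of 16 glycolysis genes did either (median 0.01), and Ldha, the lactate dehydrogenase subunit whose deletion the study examined, was at 484 CPM (462 to 508) and 466 CPM (459 to 472). Inhibitory receptors were low in both sets, with Pdcd1 at 27.7 and 36.7 CPM and Lag3 at 24.9 and 37.6 CPM.

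Levels were also read over classes of the number of Ccl5 UMIs. Besides the Ccl5-zero cells, the classes were 1 to 2 UMIs (350 cells), 3 to 5 (128 cells), 6 to 14 (117 cells) and at least 15 (178 cells), chosen after the data were seen. Nkg7 was at 73.7, 293, 537, 665 and 1087 CPM over these classes. Ly6c2 was at 26.0, 131, 186, 383 and 532 CPM. Id3 was at 461, 270.5, 227, 119 and 111 CPM. Of the 53 higher genes 40 stood in the order of the classes throughout, and of the 18 lower genes 12 did. These genes were chosen by the same Ccl5 count, which largely fixes the order of the end classes, so the counts are a description and support nothing.

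Not every gene followed the steps. Id2 was already at 422 CPM with 3 to 5 Ccl5 UMIs and at 540 CPM with at least 15, and Cxcr3 stayed between 338 and 358 CPM over the last 3 classes. At the limit itself, the 80 cells with 2 Ccl5 UMIs and the 56 cells with 3 had 479 and 483 CPM of Nkg7, 935 and 1020 CPM of S100a4, and 349.5 and 413 CPM of Id2. Ly6c2 was at 223 and 173 CPM and Ccr2 at 47.5 and 76.4 CPM. Thus Nkg7 and S100a4 lay close together on both sides of the limit. Id2 and Ccr2 came out higher and Ly6c2 lower with 3 than with 2 UMIs. These sets are small, and the differences between them were not tested. Over the wider classes, 50 of the 53 higher and 17 of the 18 lower genes lay further in the same direction with 3 to 5 than with 1 to 2 UMIs. Median depth was 8075.5 UMIs with 3 to 5 and 7550.5 UMIs with at least 15 Ccl5 UMIs, and the median ribosomal protein share was 36.8% with none and 30.1% with at least 15.

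**Figure D3:**
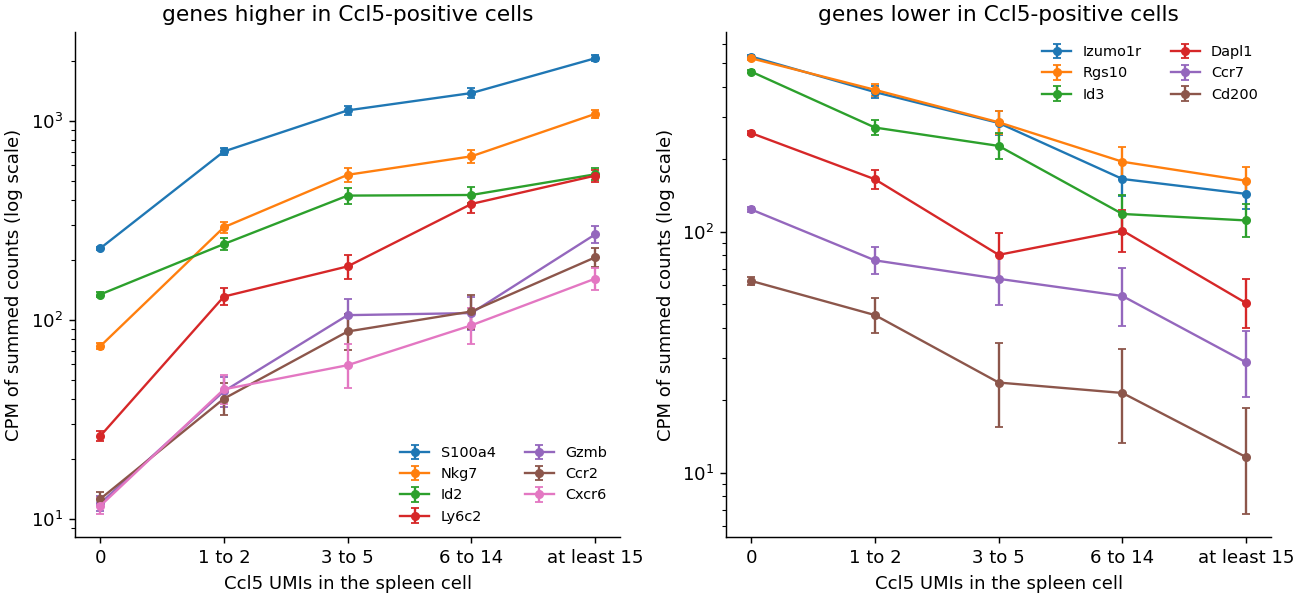
CPM of summed counts (y axis, log scale) in spleen cells of 5 classes of Ccl5 UMIs (x axis), for 7 genes higher (left) and 6 genes lower (right) in Ccl5-positive cells, with exact 95% Poisson intervals of counting error. Nkg7 goes from 73.7 CPM without Ccl5 to 1087 CPM with at least 15 UMIs, and Id3 from 461 to 111 CPM.

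Over single cells, the 5 of 2297 genes whose levels were most like that of Ccl5 were Nkg7, S100a4, Ly6c2, S100a6 and Crip1. Their Spearman correlations with Ccl5 were 0.34, 0.30, 0.26, 0.22 and 0.19 over 6020 filtered spleen cells thinned to 1000 UMIs. The cells share 1 library, and counts this sparse hold correlations down, so the values only order the genes.

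The Ccl5-positive cells were not uniform, and those with a Ccr2 UMI differed from the rest. This split was chosen after the values were seen. The 152 Ccl5-positive cells with a Ccr2 UMI had a median of 7681.5 UMIs and the 271 without had 7899, with median Ccl5 of 17 and 9 UMIs and median ribosomal protein shares of 28.8% and 33.8%. Gzmb was at 421 CPM (386 to 459) in cells with Ccr2 and 37.7 CPM (30.2 to 46.6) in those without. Cxcr6 was at 248 CPM (221 to 277) and 35.5 CPM (28.2 to 44.1). S100a4 was at 3074 CPM (2978 to 3173) and 770 CPM (734 to 807). None of these intervals overlap, but the share of all genes whose intervals part in this way was not counted. By their levels, granzyme B, Cxcr6 and S100a4 transcripts were concentrated in cells that also held Ccr2.

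Of 2549 genes with at least 50 CPM in either set, 39 (1.53%) were higher by 2-fold or more in cells with Ccr2, and 19 (0.745%) were lower by as much. Other genes on the higher side were Lgals3 (366 against 39.5 CPM), Id2 (709 against 341 CPM), Ifng (78.7 against 22.4 CPM), Il18r1 (136 against 46.9 CPM), and the interferon-induced Ifitm3 (277 against 38.2 CPM) with its neighbours Ifitm1 and Ifitm2, which were named after their values were seen (75.5 against 1.75 and 72.3 against 2.19 CPM). On the lower side stood Id3 (63.6 against 196 CPM), Tcf7 (155 against 345 CPM), Dapl1 (18.3 against 104 CPM) and Ccr7 (23.04 against 59.6 CPM). Of 22 S100, annexin and galectin genes with at least 10 CPM, 10 were at least 2-fold higher with Ccr2, and of 14 Tfh genes 5 were at least 2-fold lower, beside 2.18% and 2.14% of all 6831 genes.

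Several genes were shared by cells with and without Ccr2. Tbx21 was at 31.8 CPM (22.7 to 43.3) with Ccr2 and 29.4 CPM (22.8 to 37.3) without, and Cxcr3 at 362 CPM (330 to 397) and 346 CPM (322 to 371). Gzmk was at 42.1 and 43.4 CPM and Slamf7 at 58.8 and 51.3 CPM. Nkg7 was at 1054 and 660 CPM and Ly6c2 at 506 and 316 CPM. All of these stood above the Ccl5-zero cells in both sets; in Ccl5-zero cells Gzmk was at 1.89 CPM and Nkg7 at 73.7 CPM. The cells without a Ccr2 UMI thus carried Tbx21, Cxcr3, Gzmk and Nkg7 with little granzyme B, and lay between the Ccl5-zero cells and the cells with Ccr2 in Id3 and Tcf7.

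**Figure D4:**
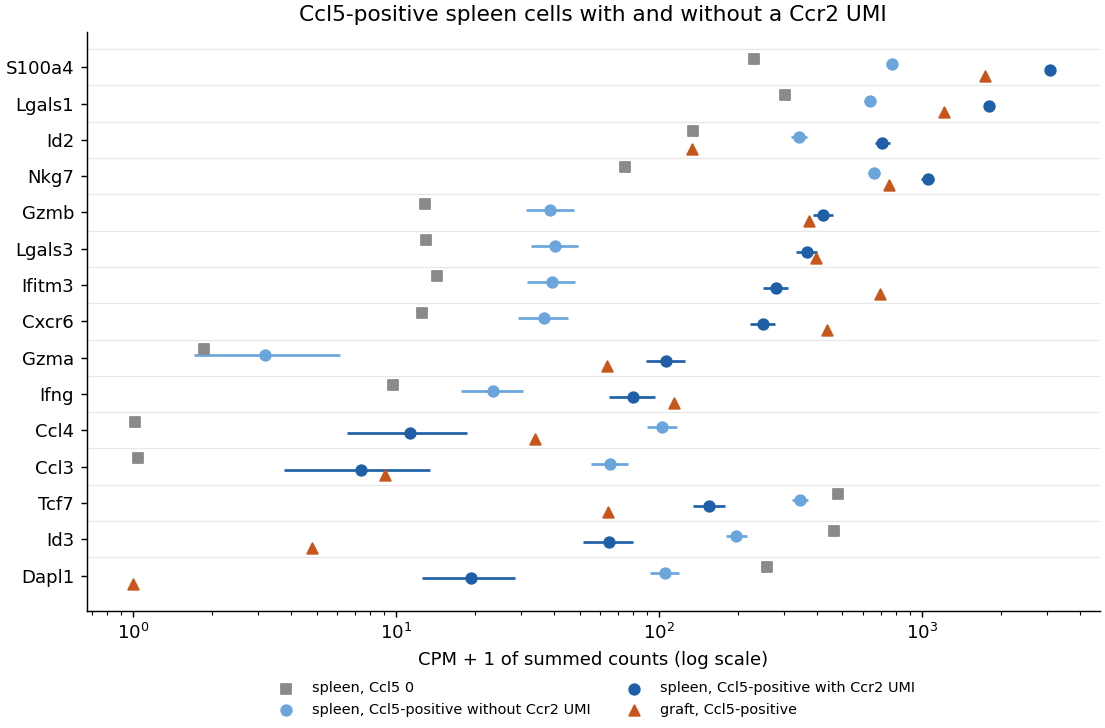
CPM + 1 of summed counts (x axis, log scale) for 15 genes (y axis) in Ccl5-zero spleen cells (grey), Ccl5-positive spleen cells without (light blue) and with (dark blue) a Ccr2 UMI, and Ccl5-positive graft cells (orange). Lines are exact 95% Poisson intervals of the blue sets. In cells with Ccr2, Gzmb and Lgals3 lie close to the graft and Ifitm3 and Cxcr6 below it, while Ccl3 and Ccl4 are higher in cells without it.

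The chemokine genes Ccl3 and Ccl4, and granzyme A, came from few cells. Ccl4 had 246 UMIs in 13 cells (up to 133 in 1 cell), Ccl3 had 155 UMIs in 8 cells, and Gzma had 138 UMIs in 15 cells. In all 29 Ccl5-positive cells held any of the 3, 5 held both Ccl3 and Ccl4, 2 held Gzma with Ccl3 or Ccl4, and none held all 3. Their median Ccl5 was 85 UMIs, against 11 over all Ccl5-positive cells. Gzma was at 106 CPM in cells with Ccr2 and 2.19 CPM without, whereas Ccl4 was at 10.3 and 102 CPM and Ccl3 at 6.36 and 64.5 CPM. These sums rest on single cells and say nothing of the set as a whole. Without all cells holding a UMI of the 3 genes, chosen after the data were seen, 49 genes were at least 2-fold higher and 17 lower, 48 and 16 of them as before.

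The same cut on Ccl5 was also applied to the graft library, where it set 701 Ccl5-positive against 1578 Ccl5-zero cells. Nearly empty barcodes held more Ccl5 in the graft (602 CPM) than in the spleen (312 CPM). The part of this free RNA in the graft comparison was not tested. Of 2383 genes with at least 50 CPM, 3 (0.126%) were at least 2-fold higher, namely Gzma, Gzmb and Ly6c2, and 1 (0.042%), Ccr7, was at least 2-fold lower. Gzmb and Ly6c2 are among the 53 genes higher in spleen (3.77% of that list, 66.7% of the graft's), and Ccr7 is among the 18 lower (5.56% and 100%). In the graft Gzmb was at 371 against 166 CPM, Ly6c2 at 309 against 137 CPM, Gzma at 62.7 against 30.3 CPM and Ccr7 at 52.1 against 112 CPM.

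The spleen's 53 higher genes had a median ratio of 1.43 in spleen, which chose them, and of 0.25 in the graft, where 50 lay above 0. The 18 lower genes had medians of -1.41 and -0.43, and 14 lay below 0 in the graft. Over all 6743 genes with at least 10 CPM in either spleen set, the graft median was 0.005. The levels show where the sets differ. S100a4 was at 1742 CPM in Ccl5-positive and 1513 CPM in Ccl5-zero graft cells, beside 1589 and 229 CPM in the spleen. Cxcr6 was at 437 and 361 CPM, beside 111 and 11.6 CPM. Id3 was at 3.81 and 6.88 CPM, beside 149 and 461 CPM. For these 3 genes both graft sets lay on the side of the Ccl5-positive spleen cells. Id2, at 133 and 116 CPM beside 472 and 134 CPM, and Cxcr3, at 176 and 172 CPM beside 352 and 172 CPM, lay instead near the Ccl5-zero spleen cells. Between the Ccl5-zero cells of the tissues, 34 of the 53 genes were at least 2-fold higher in the graft and 1 lower. Of the 18, 13 were at least 2-fold lower there and none higher. Of all 2663 genes with at least 50 CPM in either Ccl5-zero set, 335 (12.6%) were higher in the graft by as much and 170 (6.38%) lower. Whether the ratios differ between tissues was not tested.

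**Figure D5:**
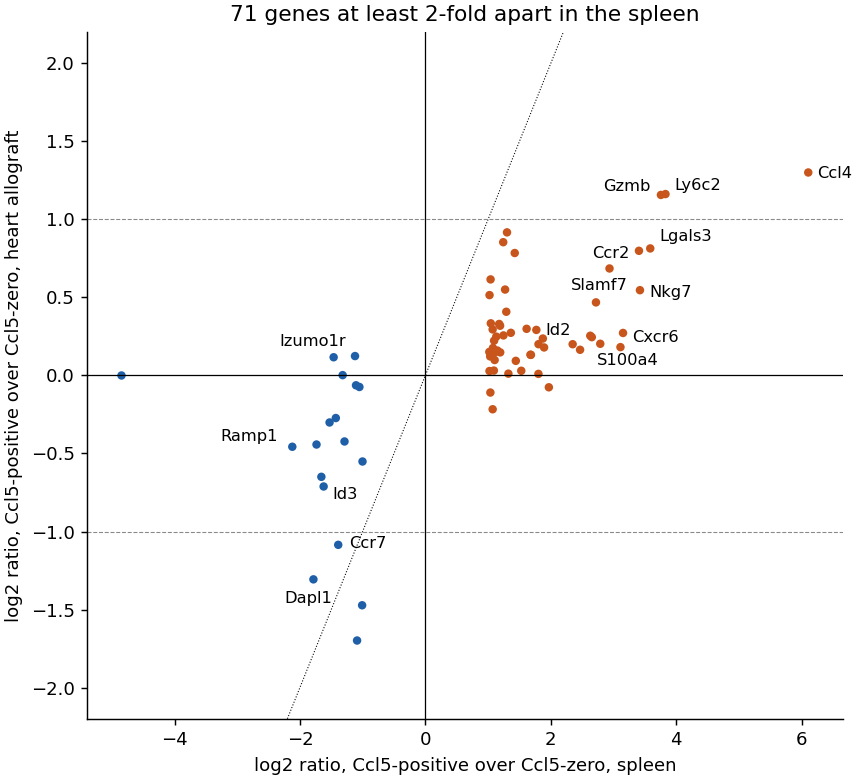
Log2 ratio of Ccl5-positive over Ccl5-zero cells in the heart allograft (y axis) against that in the spleen (x axis) for the 71 genes at least 2-fold higher (orange) or lower (blue) in the spleen, which chose the genes. Dashed lines mark a 2-fold difference in the graft and the dotted line equal ratios; Gzmb and Ly6c2 reach a ratio of 1.16 in the graft, while S100a4, Id2 and Cxcr6 lie at 0.20, 0.20 and 0.27.

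Ccl5-positive cells of the spleen and of the graft differed from each other in many genes. Of 2695 genes with at least 50 CPM in either, 294 (10.9%) were higher in the graft by 2-fold or more, and 142 (5.27%) were lower by as much. Nkg7 (751 CPM in graft and 800 CPM in spleen), S100a4 (1742 and 1589 CPM), Ly6c2 (309 and 383 CPM), Ccr2 (114 and 143 CPM) and Tbx21 (28.2 and 30.2 CPM) lay within 2-fold. Id2, in contrast, was at 133 CPM in the graft and 472 CPM in the spleen. Klf2 was at 56.5 and 1063 CPM, Bcl2 at 14.4 and 97.8 CPM, and Slamf7 at 8.31 and 54.0 CPM. Other genes of these roles were over 2-fold higher in the graft, with Gzmb at 371 and 174 CPM, Ifng at 113 and 42.4 CPM and Ctsw at 556 and 119 CPM. Of 16 Th1 genes with at least 10 CPM, 7 were at least 2-fold higher in the graft and 1 lower (median 0.55), and of 14 cytotoxic genes 6 were higher and none lower (median 0.82), beside 8.45% and 10.3% of 6878 genes and a median of -0.17. Thus some Th1 and cytotoxic transcripts lay at like levels in both tissues and others were higher in the graft, whereas Klf2, Bcl2, Id2 and Slamf7 were higher in the spleen.

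Most genes of the response to receptor signalling were higher in the graft, but those of the proximal receptor complex mostly lay within 2-fold. Of 14 genes of that complex 2 were at least 2-fold higher in the graft and 1 lower (median -0.23). Of 17 immediate early and T cell receptor response genes with at least 10 CPM, 12 were at least 2-fold higher in graft cells and 1 lower (median 2.61). Tnfaip3, an inhibitor of NF-kB signalling, was at 303 CPM in the graft and 12.2 CPM in the spleen, and Junb, an AP-1 subunit, at 1735 and 114 CPM. Of 18 inhibitory and costimulatory receptors and related genes, 9 were at least 2-fold higher in the graft and 4 lower, Slamf7 among the latter (median 1.04). The inhibitory receptor Ctla4 was at 820.2 and 44.4 CPM, Pdcd1 at 262 and 27.7 CPM, and the costimulatory receptor Icos at 1120.1 and 152 CPM. Of 20 glycolysis genes 10 were at least 2-fold higher in the graft and none lower (median 1.04), with Ldha itself at 797 and 484 CPM. Of 18 naive and stem-like genes 9 were at least 2-fold lower in the graft and 1 higher. Differences between the tissues in sorting or handling cannot be told apart from those between the cells.

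The transgenic receptor was read from its segments. Trbv19 made up 71.9% (63.0 to 79.7%) of 121 Trbv UMIs in Ccl5-positive and 79.2% (76.9 to 81.3%) of 1388 in Ccl5-zero spleen cells. The Trav14 family made up 63.2% (57.9 to 68.3%) of 348 and 56.6% (55.1 to 58.2%) of 3901 Trav UMIs. The first share was lower and the second higher in Ccl5-positive cells. The intervals overlap in both cases, and these differences were not tested. In Ccl5-positive graft cells the shares were 87.7% (82.8 to 91.5%) for Trbv19 and 78.5% (74.8 to 81.9%) for the Trav14 family. Both lay above the Ccl5-positive spleen cells with no overlap of intervals, so the transgenic segments were less dominant in the spleen. The reason was not tested. In the 177 Ccl5-positive cells that held a Trbv19 or Trav14 family UMI, 58 genes were at least 2-fold higher and 18 lower, 47 and 16 of them as before.

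Markers of other cell types differed in how the sets compared. Those of natural killer cells were higher in Ccl5-positive cells, as given beside the cytotoxic genes, and erythroid markers were at 3.39 CPM (1.75 to 5.92) against 123 CPM (120.1 to 127), with Hba-a1 at 0 in Ccl5-positive cells. Monocyte or macrophage markers summed to 0.283 CPM in Ccl5-positive and 0.512 CPM in Ccl5-zero cells, with Lyz2, which the filter limits, Cd14, Adgre1 and Fcgr1 at 0 in the former, although Ccr2, Ly6c2, Lgals3 and Plac8 are also genes of monocytes. Dendritic cell markers summed to 0.848 and 0.722 CPM, and neutrophil and platelet markers were at 0. B cell markers summed to 202 CPM (187 to 217) and 179 CPM (175 to 184), with Cd79a and Ms4a1 among those at 0 in Ccl5-positive cells. Most of it was Ighm (199.5 and 178 CPM), which was at 193 CPM in nearly empty barcodes. Gamma delta T cell markers summed to 621 and 557 CPM. Nearly all of that was Trdc (616 and 556 CPM), and Tcrg-C1, Tcrg-C2, Tcrg-C4 and Trdv4 were each at 1.98 CPM or less. With only cells that held Cd4 and none of 7 genes of other lineages, 287 Ccl5-positive cells remained, and 49 genes were at least 2-fold higher and 17 lower, 45 and 17 of them as before.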

How the data were processed

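The values are deposited UMI counts, not normalized by the authors. Per the file headers the wild-type tables come from Cell Ranger 3.0.2, whereas Cell Ranger 7.0.0 with Seurat 4.0.0 and the build mm10 stand in the submitters' processing notes. Per the labels' protocols, libraries used a 10x 3' v3 kit, and the text speaks of single nuclei. The treatment of intronic reads is not given in the sources used here. Both matrices list 6794880 barcodes and 28692 named genes, so cells were called by the filter above. No doublet caller was run, so doublets can remain. The Ldha-deficient matrix (32285 rows) was not analysed here.

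Counts were summed per set of cells with Python 3.11.15 (numpy 2.4.6, scipy 1.17.1, pandas 2.3.3) and scaled to CPM. A gene was counted as higher or lower at 2-fold on log2(CPM + 1) with at least 50 CPM in either set. Lists used 10 CPM. Thinning drew 1000 UMIs per cell. Genes named were the given markers, fixed Th1, homing and lineage genes, the 12 highest and 12 lowest genes (without antigen receptor segments, genes of mitochondria, ribosomal proteins or haemoglobin, sex-linked genes and genes with no proper name), up to 4 members of each of 23 lists (all members where a list has 10 or fewer), and 5 genes most like Ccl5. Other list members named in the text were added where a list was counted out, and a few genes within these counts are not reported here by name. The cells, lists and tests were chosen with earlier results of these data known. GENCODE M21 (GRCm38) gave the gene positions. The functions were tested on simulated data. A count of 0 allows up to 3 counts, which is 0.848 CPM in Ccl5-positive and 0.0699 CPM in Ccl5-zero spleen cells.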

Additional observations from a re-analysis of the deposited data

Results flagged for a closer look

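Of the 536 spleen barcodes left out for more than 1 cell cycle UMI, 88 held at least 3 Ccl5 UMIs (16.4%, 13.4 to 19.8%), beside 7.03% of the filtered cells. Their median depth was 10064.5 UMIs, beside 7904.5 UMIs in filtered cells, and its part in the share was not tested. In the graft the shares were 25.7% of 1276 such barcodes and 25.8% of filtered cells.

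Izumo1r and Rbpj had ratios of opposite sign in the 2 tissues, each with a counting interval on 1 side of equality. Izumo1r, the folate receptor 4 gene, was at 193 CPM in Ccl5-positive and 533 CPM in Ccl5-zero spleen cells (log2 ratio -1.46), and at 268.5 and 248 CPM in the graft (0.12). Rbpj, the DNA-binding factor of Notch signalling, was at 51.4 and 24.5 CPM in the spleen (1.04) and at 172 and 186 CPM in the graft (-0.11). The difference between tissues was not tested, and both graft differences are small.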

How the results depend on the processing

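No paired analysis was possible because each group has 1 library. In spleen 53 genes were higher and 18 lower of 2475. Thinning to 1000 UMIs gave 84 and 34 of 2589 genes, and a floor of 10 CPM gave 161 and 59 of 6743. A floor of 100 CPM gave 36 higher and 10 lower of 1281 genes. Totals without mitochondrial, ribosomal protein genes and Malat1 gave 62 higher and 35 lower of 3697. The number of Ccl5-positive cells was 230 with at least 10 Ccl5 UMIs and 177 with a Trbv19 or Trav14 family UMI required. In the graft 3 genes were higher and 1 lower of 2383. A limit of 5 Ccl5 UMIs gave 0 lower of 2386 genes, and a limit of 10 gave 9 higher of 2416. Thinning gave 6 higher of 2474 genes, and a floor of 10 CPM gave 10 higher and 7 lower of 6172. The cause was not tested, except that lower floors test more genes. Of the 18 alternatives, 2 were added after seeing the data. Under all of them 52 or 53 of the 53 higher and 17 or 18 of the 18 lower genes kept their direction in spleen. Floors and pseudocounts cannot change a sign, most other settings reuse largely the same cells, and the genes were chosen for being 2-fold apart. These counts are therefore a description and support nothing. Of 119 named genes, 2 within 2-fold or under the floor changed sign on thinning, Gpr183 to a ratio of 0.019 and Bcl2l1 to -0.086; no list median that had an interval on 1 side of 0 did. Depth limits the values of genes with few UMIs in the 423 cells, such as Foxp3, Il12rb2 and Prf1, and with 1 library per tissue none of the differences has a measure of spread between animals.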
